A study of Ovis aries with 12 samples.

Results

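A set of 9 genes of muscle protein breakdown was followed in fetal sheep biceps femoris, a muscle of the hind limb, shortly before birth: FBXO32, CTSB, CTSD, CAPN2, CAPN3, SQSTM1, UBB, PSMD4 and PSMB7. They were chosen by gene, with earlier results of these data known. Every array probe whose gene name or sheep RefSeq entry matched 1 of them was taken, and the matching used no measured value. Of 985 gene names on the array these 9 had 16 probes among 15008 on the array, and all 16 were among the 10730 probes tested. FBXO32 and CTSB had 1 probe each and the other 7 genes had 2 each.

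The cortisol group comprised fetuses of ewes infused with cortisol at 1 mg/kg/day from about day 115 of pregnancy, and the control group fetuses of ewes given vehicle over the same time. Each group is represented by 6 arrays, although 7 ewes were treated per arm, and the remaining animals were not analysed here. All fetuses were singletons, and tissue was taken at necropsy between day 139 and day 144, soon after labour began, from ewes of both arms. The tissue field and titles name the biceps femoris, but the treatment text of the same labels speaks of the left ventricle of the heart.

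Skeletal muscle removes its own proteins by several routes. In the ubiquitin-proteasome route, ligases attach chains of the small protein ubiquitin to a target, and the proteasome, a barrel-shaped protease with a regulatory cap, degrades it. Calpains are calcium-activated proteases that cut proteins at few sites, including anchoring proteins of the sarcomere, while cathepsins digest what autophagy delivers to the lysosome. Glucocorticoids are known to raise FBXO32 mRNA in the muscle of adult rodents, and FBXO32 is widely used as a marker of muscle wasting.

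Each probe is a strand of 60 bases. Sequences of probes for 5 of the 9 genes are given below, read 5′ to 3′ with the gene and the probe's first base in the transcript used to design the array. CTSB is shown because it ran against FBXO32 outside the high arrays, as did PSMB7, PSMD4 and CTSD because they shared most of their high arrays with FBXO32, and UBB because ubiquitin genes resemble each other. Capitals mark the bases that both probes of a gene share, so a sequence in lower case shares none with another probe of its gene.
CTSB base 668: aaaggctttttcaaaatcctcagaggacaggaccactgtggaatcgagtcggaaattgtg
PSMD4 base 457: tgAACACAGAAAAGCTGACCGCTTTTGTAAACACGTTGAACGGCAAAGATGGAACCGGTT
PSMD4 base 459: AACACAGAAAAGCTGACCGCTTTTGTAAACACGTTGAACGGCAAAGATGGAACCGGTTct
CTSD base 888: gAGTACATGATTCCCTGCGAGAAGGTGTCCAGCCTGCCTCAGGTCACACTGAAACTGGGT
CTSD base 889: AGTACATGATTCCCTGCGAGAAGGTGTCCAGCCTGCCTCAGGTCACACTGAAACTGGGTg
PSMB7 base 158: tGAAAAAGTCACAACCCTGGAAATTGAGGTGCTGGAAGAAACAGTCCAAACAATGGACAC
PSMB7 base 159: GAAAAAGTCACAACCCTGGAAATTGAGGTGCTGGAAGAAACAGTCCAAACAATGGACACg
UBB base 946: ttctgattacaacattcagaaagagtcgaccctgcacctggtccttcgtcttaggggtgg
The paired probes of CTSD, SQSTM1 and PSMB7 share 59 of 60 bases, those of PSMD4 58 and those of CAPN2 39. They are therefore near repeats of 1 measurement, not separate evidence. The pairs of CAPN3 and UBB share no base.

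All values are log2 of the processed spot intensity minus the 75th percentile of the same array, so 0 is the level that 25% of probes exceed. That percentile lay at 187 to 448 intensity units per array, and 66.3% to 76.0% of probes were well above background. All 16 probes of the 9 genes were well above background on all 12 arrays, and no spot was saturated. Of 11 skeletal-muscle markers listed, 6 were measured (MYOD1, MYOG, MYH1, MYH2, MYH7 and TNNC2), and of 8 heart markers none was on the array by name. TNNC2, the troponin C of fast skeletal fibres, was at 9.92 to 10.86 on cortisol arrays and 8.44 to 10.97 on controls. The 6 markers summed to 1040 to 1993 times the 75th percentile on cortisol arrays and 371 to 2122 on controls, so genes of skeletal muscle were measured on all 12 arrays. RNA of the heart, which the treatment text names, was not checked for want of heart markers. Control array 3 stood apart in fibre genes, with 0.50 for the fast myosin gene MYH1, against 4.92 to 5.93 on the other controls. Differences are cortisol minus control with 95% intervals from limma, and n = 6 arrays per group throughout. The labels number the samples and say nothing more of their origin, so p-values measure the spread between these arrays.

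None of the 9 genes passed the test between cortisol and control arrays, and neither did any other probe on the array. FBXO32, the muscle ubiquitin ligase also called atrogin-1, had the widest difference of the 9, with a higher mean after cortisol that came from 3 of the 6 cortisol arrays. The lysosomal proteases CTSB and CTSD, the autophagy receptor SQSTM1, the proteasome cap subunit PSMD4 and both calpains had higher means after cortisol, by 0.01 to 0.26. Ubiquitin itself (UBB) and the proteasome core subunit PSMB7 had lower means, by 0.14 and 0.11 on the log2 scale.

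In counts, 7 of the 9 genes had a higher mean after cortisol and 2 a lower one, with a median difference of 0.18. Over all tested probes 4932 were higher (46%) and 5798 lower, with a median of -0.02. In limma, 0 of 10730 probes had a Benjamini-Hochberg adjusted p under 0.05 (0%), and the lowest adjusted p on the array was 0.692. Without adjustment 732 probes had a p under 0.05 (6.82%), 2.14% of all probes with a higher and 4.68% with a lower mean after cortisol, and FBXO32 was the 1 member among them. The groups overlapped for all 9 genes. At least 3 cortisol arrays lay above every control for 4 of the 9 (FBXO32, CTSB, CTSD and PSMD4), a pattern shown by 13.3% of probes.

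**Figure D1:**
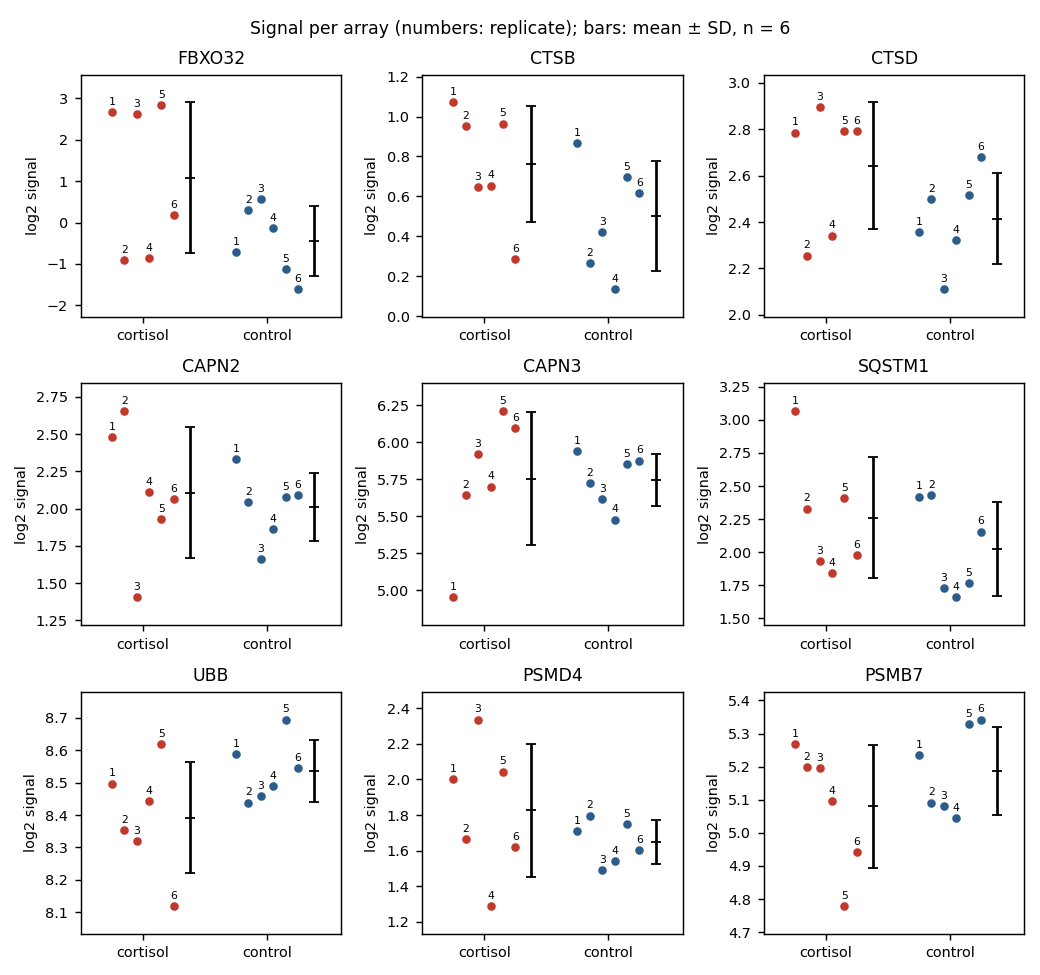
Log2 signal relative to the array's 75th percentile (vertical axes, each on its own scale) for the highest-signal probe of each of the 9 genes, with cortisol arrays in red on the left and control arrays in blue on the right. Points are single arrays numbered by replicate, and bars give the mean ± SD of 6 arrays. FBXO32 on cortisol arrays 1, 3 and 5 lies at 2.61 to 2.82, above all 6 controls.

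FBXO32 had log2 signals of 2.66, -0.91, 2.61, -0.86, 2.82 and 0.17 on cortisol arrays 1 to 6, against -0.71, 0.30, 0.56, -0.13, -1.12 and -1.60 on control arrays 1 to 6. Cortisol arrays 1, 3 and 5 were above every control, while cortisol arrays 2, 4 and 6 lay within the range of the controls. The group means were 1.08 ± 1.81 after cortisol and -0.45 ± 0.84 in controls (SD, n = 6 each), a difference of 1.53 (95% interval 0.01 to 3.05), or 2.89-fold. The unadjusted limma p was 0.0485 and the adjusted p 0.720, and an exact two-sided permutation test of the same difference gave p = 0.102.

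The FBXO32 values fell into separate sets. The 9 lower arrays reached at most 0.56 and the 3 higher ones began at 2.61, a gap of 2.04 within a whole range of 4.42, and the next widest gap between neighbouring arrays was 0.58. Its SD among cortisol arrays was larger than that of 99.4% of tested probes, and its SD among controls larger than that of 95.4%. Only 17 of the 10730 tested probes had a higher difference of means.

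The 3 high arrays were spread over both slides. Arrays on the same slide and in the same row formed 3 sets of 2 cortisol and 2 control arrays, in which the FBXO32 difference was 1.08 on slide 1, 0.66 in row 1 of slide 2 and 2.85 in row 2 of slide 2. All 3 high cortisol arrays sat in columns 1 and 2 of their slides, and the cortisol arrays in columns 3 and 4 had -0.91, -0.86 and 0.17. The controls in columns 1 and 2 had -0.71, 0.56 and -1.12, and those in columns 3 and 4 had 0.30, -0.13 and -1.60. No control in columns 1 and 2 exceeded 0.56, and the part of slide position in the cortisol values was not tested.

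**Figure D2:**
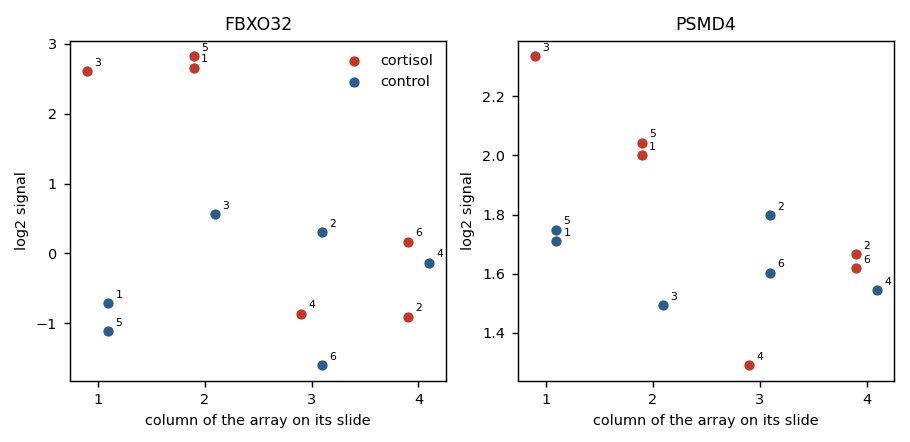
Log2 signal of FBXO32 (left) and PSMD4 (right) by the column of the array on its slide (horizontal axes), 1 point per array numbered by replicate, cortisol in red and control in blue. The 3 cortisol arrays in columns 1 and 2 have the highest values of both genes, and the 3 controls there do not.

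Few of 30 measured markers of cell types and muscle identity shared the split of these 3 arrays, with 2 highest and 1 lowest there. That 1 was MYOD1, of the 6 skeletal-muscle markers. MYOD1, a master regulator of muscle cells, was -0.35, 1.01 and 0.49 on cortisol arrays 1, 3 and 5 and 2.59, 2.14 and 2.52 on cortisol arrays 2, 4 and 6, against 1.63 to 2.27 on controls. Its 3 lowest arrays were thus the 3 highest of FBXO32, as for 4.18% of probes. MYOG, a regulator of muscle differentiation, was lowest on cortisol arrays 1 and 3, at -0.48 and -0.25, but at 0.84 on cortisol array 5, and the fast myosin gene MYH1 was highest on cortisol arrays 5 and 3, at 6.37 and 6.19. The leukocyte integrin gene ITGB2 and the mesenchymal filament gene VIM had the same 3 highest arrays as FBXO32, a pattern of 3.48% of probes. The collagen genes did not, and COL1A1 was -0.64, -1.59 and -0.87 on cortisol arrays 1, 3 and 5 and 0.19, 1.53 and -0.76 on cortisol arrays 2, 4 and 6, against -0.97 to 1.65 on controls. COL1A2 and COL3A1 had their lowest values of all 12 on cortisol array 3, at -1.18 and -0.85. Of 11 leukocyte markers 3 were measured, while ITGAM and LYZ were on the array but not measured above background. The summed level of the 5 on the array was 0.541 to 0.946 times the 75th percentile in cortisol arrays and 0.429 to 0.614 in controls. The 6 fibroblast and matrix markers summed to 95.4 to 206 in cortisol arrays and 95.2 to 170 in controls, and without VIM to 43.2 to 62.2 in cortisol arrays and 37.1 to 56.5 in controls. The part of cell composition in the FBXO32 values was not tested, and fewer cells of a type cannot be told apart from less RNA per cell in bulk tissue.

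UBB is a polyubiquitin gene, whose product is cut into single ubiquitin molecules. At the higher-signal probe, cortisol arrays ran from 8.12 over a median of 8.40 to 8.62, and controls from 8.44 over 8.52 to 8.69. Cortisol arrays 2, 3 and 6 lay below every control (16.9% of probes had at least 3 such arrays), and cortisol array 5 was second only to control array 5. The means were 8.39 ± 0.17 after cortisol and 8.54 ± 0.096 in controls, a difference of -0.14 (-0.41 to 0.12), with a limma adjusted p of 0.818. The other probe, which shares no base with it, gave -0.17. Ubiquitin coding sequence is repeated within this gene and is near-identical in other ubiquitin genes, and how far their RNA adds to the signal was not tested.

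PSMD4 encodes a subunit of the proteasome's regulatory cap that binds ubiquitin chains. Its signal was 2.00, 1.67, 2.34, 1.29, 2.04 and 1.62 on cortisol arrays 1 to 6, against 1.71, 1.80, 1.49, 1.54, 1.75 and 1.60 on control arrays 1 to 6. Cortisol arrays 3, 5 and 1 were the 3 highest of all 12, the same as for FBXO32, and cortisol array 4 was the lowest. The difference of means was 0.18 (-0.19 to 0.54), with a limma adjusted p of 0.843. It was 0.08 without cortisol array 3 and 0.28 without cortisol array 4. Within the slide and row sets it was 0.08, 0.30 and 0.16.

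PSMB7 encodes a catalytic subunit of the proteasome's core. Cortisol arrays ran from 4.78 over a median of 5.15 to 5.27, and controls from 5.04 over 5.16 to 5.34, with cortisol arrays 5 and 6 below every control. The difference was -0.11 (-0.39 to 0.17; limma adjusted p 0.888), and -0.05 without cortisol array 5. It was 0.07 on slide 1, 0.08 in row 1 of slide 2 and -0.47 in row 2 of slide 2, so the direction was not the same in every set. The second probe, 1 base away, gave -0.17, with all 6 cortisol arrays below the control mean of that probe.

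CAPN2 encodes the catalytic subunit of m-calpain, which is found in most tissues. Cortisol arrays ran from 1.41 over a median of 2.09 to 2.65, and controls from 1.66 over 2.06 to 2.33. The cortisol range thus extended beyond the controls on both sides, with cortisol arrays 1 and 2 above and cortisol array 3 below every control. The difference was 0.10 (-0.33 to 0.53; limma adjusted p 0.940), and -0.01 without cortisol array 2. The 2 CAPN2 probes overlap by 39 bases and differed by 0.89 in signal on average, yet gave differences of 0.10 and 0.13 between the groups.

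CAPN3 encodes a calpain specific to skeletal muscle, whose loss causes a limb-girdle muscular dystrophy in humans. Cortisol arrays ran from 4.95 over a median of 5.81 to 6.21, and controls from 5.48 over 5.79 to 5.94. Cortisol array 1 was the lowest of all 12 and cortisol arrays 5 and 6 the highest, so the groups had nearly the same mean and an unlike spread, with SDs of 0.45 after cortisol and 0.18 in controls. The difference was 0.01 (-0.42 to 0.43; limma adjusted p 0.996), and it was -0.53 on slide 1, 0.26 in row 1 and 0.29 in row 2 of slide 2. The second CAPN3 probe, which shares no base with the first, gave 0.06.

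CTSB encodes a cysteine protease of the lysosome. Its signal was 1.07, 0.95, 0.65, 0.65, 0.96 and 0.28 on cortisol arrays 1 to 6, against 0.87, 0.27, 0.42, 0.14, 0.70 and 0.62 on control arrays 1 to 6. Cortisol arrays 1, 2 and 5 were above every control, and cortisol array 6 was below all controls but 2. The means were 0.76 ± 0.29 after cortisol and 0.50 ± 0.28 in controls, a difference of 0.26 (-0.11 to 0.63; limma adjusted p 0.778). Within the slide and row sets it was 0.44, 0.37 and -0.03.

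CTSD encodes the main aspartic protease of the lysosome. Its signal was 2.79, 2.26, 2.90, 2.34, 2.79 and 2.79 on cortisol arrays 1 to 6, against 2.36, 2.50, 2.11, 2.32, 2.52 and 2.68 on control arrays 1 to 6. Cortisol arrays 1, 3, 5 and 6 were above every control, so the 3 arrays high in FBXO32 were among them. The means were 2.64 ± 0.27 after cortisol and 2.41 ± 0.20 in controls, a difference of 0.23 (-0.11 to 0.56; limma adjusted p 0.779). It was 0.09, 0.40 and 0.19 within the slide and row sets.

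SQSTM1 encodes p62, which tethers ubiquitin-marked proteins to the forming autophagosome. Cortisol arrays ran from 1.84 over a median of 2.15 to 3.07, and controls from 1.66 over 1.96 to 2.43. Cortisol array 1, at 3.07, was the 1 array above every control. The difference was 0.23 (-0.25 to 0.72; limma adjusted p 0.844) and 0.07 without cortisol array 1.

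**Figure D3:**
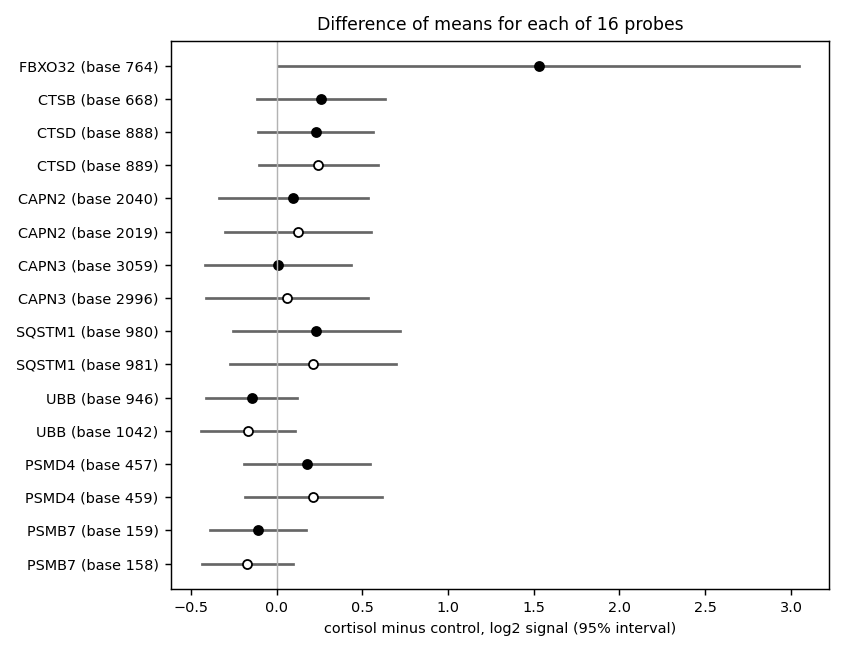
Difference of group means, cortisol minus control, in log2 signal (horizontal axis) for all 16 probes, each named by its gene and first base. Filled points are the higher-signal probe of a gene, open points its other probe, and lines are 95% limma intervals. The FBXO32 interval starts at 0.01 and ends at 3.05, and all other intervals include 0.

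Whether the other 8 genes follow FBXO32 from array to array was examined next. Because FBXO32 itself fell into sets of 3 and 9 arrays, the correlation over all 12 is given as a description of likeness, and tests were made within the 9 lower arrays and within the 6 controls. Over 12 arrays, Pearson's r with FBXO32 was 0.77 for PSMD4, 0.57 for CTSD, 0.41 for SQSTM1, 0.27 for CTSB, -0.11 for UBB, -0.12 for CAPN3, -0.34 for CAPN2 and -0.42 for PSMB7. Thus 4 of the 8 had a positive r, where 44.9% of all probes did. Across the array r had a median of -0.07 and ran from -0.72 at the 5th percentile to 0.68 at the 95th, which PSMD4 exceeded. The permutation test planned over all 12 arrays, which pools the sets, gave none of the 8 genes an adjusted p under 0.05, where 3.97% of probes had one (two-sided, Benjamini-Hochberg over 10714 probes). The lowest were 0.0577 for PSMD4 and 0.250 for CTSD.

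The likeness of PSMD4 came from the 3 high arrays. Within the 9 other arrays its r with FBXO32 was 0.00168 (Spearman's rho -0.083), and within the 6 controls -0.22. Of the 8 genes, PSMD4 was the 1 that had the same 3 highest arrays as FBXO32, as had 3.48% of probes. CTSD had r of -0.23 within the 9 arrays and -0.77 within controls, and SQSTM1 had -0.16 and -0.13. The 6 cortisol arrays alone, which include the 3 high ones, gave 0.88 for PSMD4, 0.85 for CTSD and 0.48 for SQSTM1. There UBB had 0.44, CTSB 0.35, CAPN3 -0.05, PSMB7 -0.11 and CAPN2 -0.47. With slide and row means subtracted, r over 12 arrays was 0.80 for PSMD4, 0.76 for SQSTM1, 0.73 for CTSD and 0.34 for CTSB. By that measure UBB had -0.09, CAPN3 -0.08, PSMB7 -0.45 and CAPN2 -0.49.

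**Figure D4:**
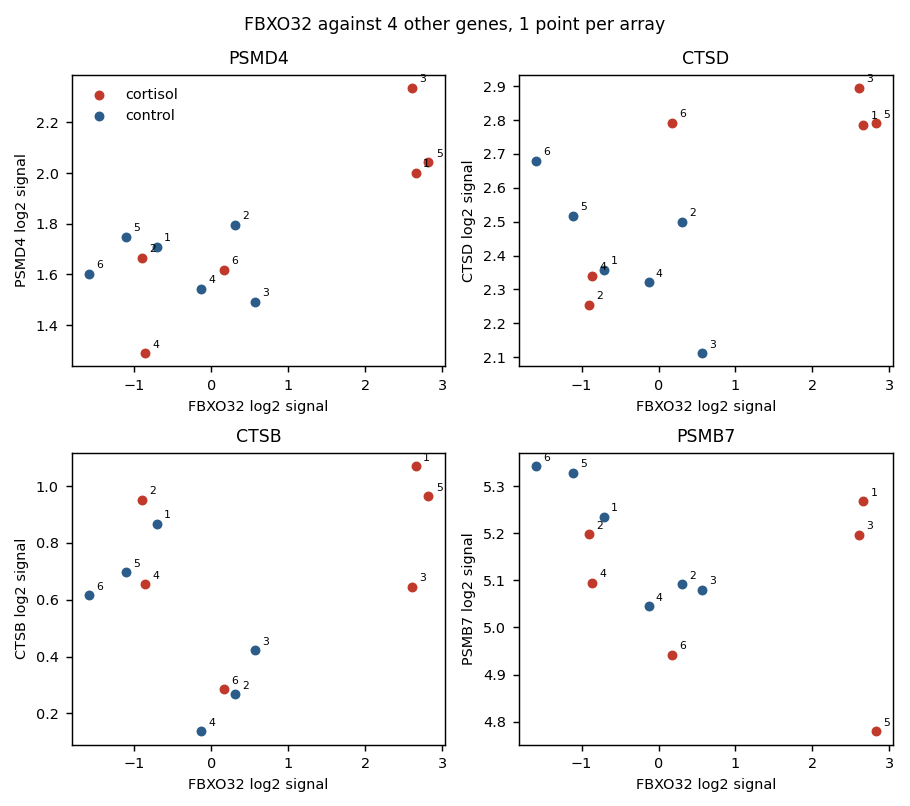
Log2 signal of PSMD4, CTSD, CTSB and PSMB7 (vertical axes) against that of FBXO32 (horizontal axes), 1 point per array numbered by replicate, cortisol in red and control in blue. Cortisol arrays 1, 3 and 5 stand apart at the right, at FBXO32 values of 2.61 and above, and among the other 9 arrays CTSB and PSMB7 run downward, with r of -0.68 and -0.81.

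Among the 9 lower arrays, 7 of the 8 genes had a negative r with FBXO32, where 51% of probes did. PSMB7 had r = -0.81 (exact two-sided permutation p = 0.0096) and rho = -0.82 (exact p = 0.0108), and r was -0.91 without the 2 arrays farthest from the median. CTSB had r = -0.68 (exact permutation p = 0.0479) and rho = -0.60 (exact p = 0.0968), and r was -0.64 without the 2 farthest arrays. Adjusted over the 10714 probes compared, these p-values became 0.752 for PSMB7 and 0.848 for CTSB (Benjamini-Hochberg, on the exact permutation p of r). Across the array 5.81% of probes had an exact p under 0.05 and 0% an adjusted one. The other PSMB7 probe, which shares 59 bases with the first, had r = -0.56 (exact permutation p = 0.121). CAPN2 had r = -0.54 (exact permutation p = 0.130) and rho = -0.68 (exact p = 0.0503). At the higher- and lower-signal UBB probes r was -0.48 and -0.62 (exact permutation p = 0.195 and 0.0732). Without the 2 farthest arrays r was -0.65 for UBB at the higher-signal probe, -0.29 for SQSTM1, -0.27 for CAPN2 and -0.09 for PSMD4. It was 0.07 for CTSD and 0.04 for CAPN3, so their sign changed.

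Within the 6 controls all 8 genes had a negative r with FBXO32, where 51.8% of probes did. These controls are among the 9 lower arrays, so this count and the one for those arrays are not separate. Most of the 8 genes also rose and fell together among controls, so they are not 8 separate results. Their r with each other was 0.90 for CTSB and CAPN3 and 0.85 for CAPN3 and PSMB7, though -0.11 for SQSTM1 and UBB. With FBXO32, r among controls ran from -0.92 for PSMB7 to -0.13 for SQSTM1. For PSMB7 the exact two-sided permutation p was 0.0222, or 0.755 when adjusted over all probes compared, and 6.22% of probes had an exact p under 0.05. The order of FBXO32 and PSMB7 among controls was opposite only in part, with rho = -0.83 (exact permutation p = 0.0583). Control array 6 had the lowest FBXO32 and the highest PSMB7 signal. Control array 3 had the highest FBXO32 signal, but the lowest PSMB7 signal was on control array 4. The other PSMB7 probe had r = -0.83 (exact permutation p = 0.05). The lower-signal UBB probe had r = -0.88 (exact permutation p = 0.0333) and rho = -0.94 (exact p = 0.0167). None of these correlations passed the adjusted threshold. Without the 2 controls farthest from the median FBXO32 signal, r was 0.32 for SQSTM1, -0.06 for PSMD4, -0.11 for CTSD and -0.45 for CAPN2. It was -0.59 for CAPN3, -0.80 for CTSB, -0.91 for PSMB7 and -0.99 for UBB, each at the higher-signal probe.

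The named genes whose pattern over the 12 arrays was most like FBXO32, by Pearson's r, were FABP5 (0.91), PPARGC1A (0.91), SLC25A33 (0.90), IRF2 (0.89), ICAM1 (0.87), NOD2 (0.87), TAC1 (0.85) and CEBPB (0.85). FABP5 carries fatty acids in the cytosol, PPARGC1A is a coactivator of mitochondrial biogenesis, SLC25A33 carries pyrimidine nucleotides into mitochondria and CEBPB is a transcription factor. Most opposed were ART5 (-0.92), CLC4 (-0.91), BCAT2 (-0.89) and CCR10 (-0.87), of which BCAT2 is the mitochondrial aminotransferase of branched-chain amino acids. In the pooled permutation test over 12 arrays these 12 genes had adjusted p-values of 0.0107 to 0.0378, but they were chosen by the same r, so the test is no independent evidence. SLC25A33 had 2.88, -0.08, 2.49, -1.61, 2.59 and -0.52 on cortisol arrays 1 to 6, against -1.28 to 0.11 on controls, so the same 3 arrays were high. Within the 9 lower arrays its r with FBXO32 was 0.27, whereas it was 0.83 for PPARGC1A and 0.75 for FABP5. The 3 tested probes of PPARGC1A differed in likeness, from 0.55 to 0.91, and those of BCAT2 gave -0.89 and -0.50. For PPARGC1A the highest-signal probe had the r of 0.55, with a difference of -0.09 between cortisol and control means. The probe most like FBXO32, used here, had a difference of 0.33.

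**Figure D5:**
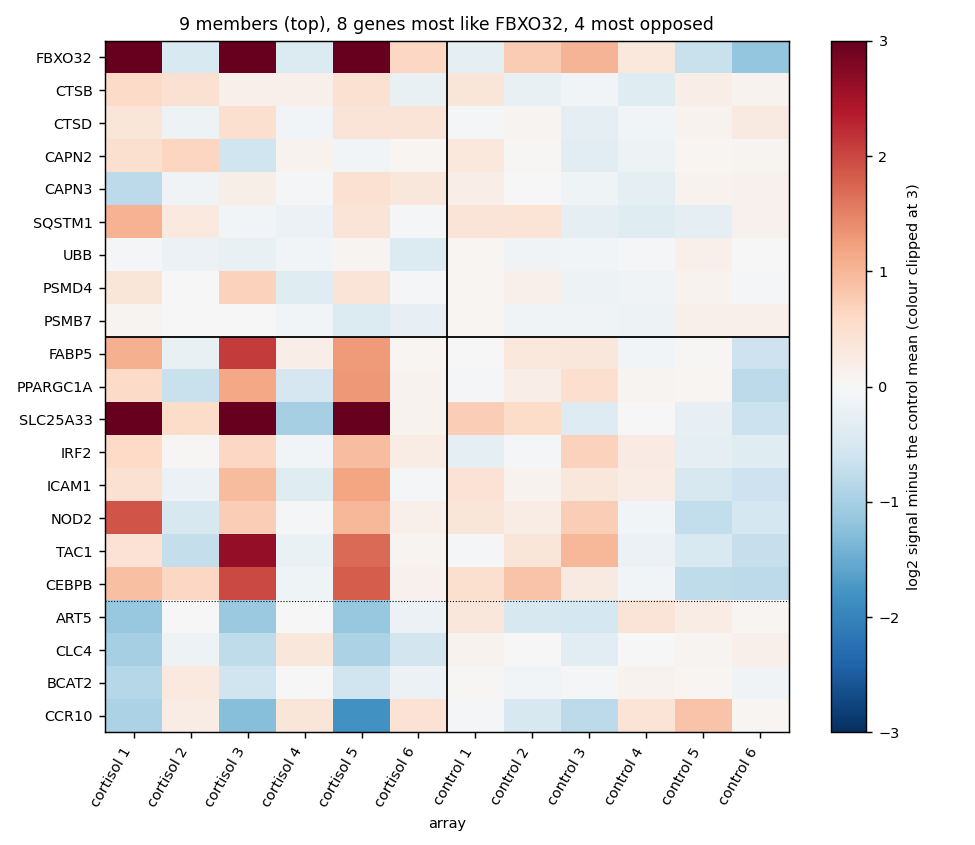
Log2 signal minus the control mean of the same gene (colour, clipped at 3) for the 9 genes at the top, the 8 named genes most like FBXO32 below them and the 4 most opposed at the bottom, with the 6 cortisol arrays left of the line and the 6 control arrays right of it. Red cells of FBXO32 on cortisol arrays 1, 3 and 5 recur in SLC25A33 and FABP5, and the rows of UBB and PSMB7 stay pale.

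Other genes of these routes were taken from lists of the pathways, of which few were on the array by name. Beyond the 9 genes, 35 listed genes were measured. Of these 14 had a higher and 21 a lower mean after cortisol, with a median of -0.03, beside 326 higher (48.1%) and 352 lower and a median of -0.01 over the 678 named genes tested. None of the 35 passed in limma, where the lowest adjusted p was 0.692, and 3 had an unadjusted p under 0.05 (CTSS, ATP6V1E1 and CEBPB), beside 51 of the 678 named genes and the 6.82% of all probes given above.

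For the ubiquitin part of the route, 2 of 27 listed ligase genes were measured, FBXO32 and SKP1. SKP1, the adaptor that joins F-box proteins such as FBXO32 to their ligase complex, had a difference of -0.22. Of 43 genes of ubiquitin, related modifiers and their activating and conjugating enzymes 7 were measured, 1 with a higher and 6 with a lower mean, at a median of -0.10. UBE2D2, a conjugating enzyme, had -0.10. None of 19 deubiquitinases was on the array by name. Of 50 proteasome genes 6 were measured, 5 with a higher and 1 with a lower mean, at a median of 0.07, among them PSMB8 of the immunoproteasome at 0.13 and the core subunit PSMA6 at 0.08.

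Of 12 genes of calpains and their inhibitor 5 were measured, 2 with a higher and 3 with a lower mean. CAPN1, the catalytic subunit of the other ubiquitous calpain, had -0.27, the small subunit CAPNS1 -0.02 and the inhibitor calpastatin (CAST) -0.07. The 2 CAST probes differed in sign, at -0.07 and 0.37. Of 49 cathepsin, cystatin and lysosome genes 12 were measured, 5 with a higher and 7 with a lower mean, at a median of -0.03. One autophagy gene of 43, SQSTM1, was measured.

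CTSS, a cathepsin found mainly in antigen-presenting cells, had -1.99, -1.96, -0.80, -1.40, -2.10 and -2.16 on cortisol arrays 1 to 6, against -2.54, -2.35, -2.22, -2.15, -1.97 and -2.60 on control arrays 1 to 6. Cortisol arrays 2, 3 and 4 were above every control, a set unlike that of FBXO32. The difference was 0.57 (0.08 to 1.06), with an unadjusted limma p of 0.0266 and an adjusted p of 0.692. The leukocyte markers given above also reached higher summed levels in cortisol arrays, and their part in the CTSS values was not tested.

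ATP6V1E1, a subunit of the proton pump that acidifies lysosomes, had 1.49, 1.79, 1.16, 1.74, 1.33 and 1.74 on cortisol arrays 1 to 6, against 2.07, 2.01, 2.08, 1.83, 1.92 and 2.07 on control arrays 1 to 6. All 6 cortisol arrays lay below every control, as for 0.317% of probes. Its 3 lowest arrays were the 3 highest of FBXO32, as for 4.18% of probes, and its r with FBXO32 over 12 arrays was -0.81. Of the 12 cathepsin, cystatin and lysosome genes measured, 7 had a positive and 5 a negative r. The difference was -0.46 (-0.76 to -0.15), with an unadjusted limma p of 0.00615 and an adjusted p of 0.692. Of the other pump subunits measured, ATP6V1B2 had -0.48 and ATP6V0C -0.03, and the asparaginyl protease LGMN -0.32.

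Of 37 genes listed for FOXO, AKT and other signals upstream of muscle atrophy, 11 were measured, 6 with a higher and 5 with a lower mean, at a median of 0.03. CEBPB had -1.05, -1.33, 0.03, -2.07, -0.13 and -1.83 on cortisol arrays 1 to 6, against -1.46, -1.09, -1.68, -2.03, -2.72 and -2.73 on control arrays 1 to 6. Its difference was 0.89 (0.03 to 1.74), with an unadjusted limma p of 0.0425 and an adjusted p of 0.720, and its 3 highest arrays were those of FBXO32. MSTN, which encodes the growth inhibitor myostatin, had a difference of 0.87, or 0.13 without control array 3, and NFKBIA of 0.17, whereas SMAD3 had -0.11, AKT1 -0.10 and SMAD2 -0.07. On control array 3 MSTN was at -5.40, against -1.41 to -0.67 on the other controls, and SMAD2 at -1.01, against -1.99 to -1.81. AKT1 was at 1.28 on control array 6, against 0.48 to 0.62 on the other controls. AKT1 also ran against FBXO32 over 12 arrays, with r of -0.75, where the 5th percentile of probes was -0.72. Its 3 lowest arrays, at 0.39, -0.16 and 0.34 on cortisol arrays 1, 3 and 5, were the 3 highest of FBXO32, as for 4.18% of probes. Of the 11 genes, 7 had a positive and 4 a negative r with FBXO32.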

How the data were processed

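Total RNA was labelled with Cy3 and hybridised to a 1-colour Agilent array, and spots were quantified by Agilent Feature Extraction 10.1.1.1 according to the submitters' processing notes. Per the file headers, the processed intensity is background-subtracted and was not scaled between arrays, and the other columns used hold mean, median and background intensity and flags of 0 or 1 per spot. A series-wide table that the authors deposited contains log2 values whose column quartiles differ by at most 0.034. Their order follows the median signal minus background, and no source used here names the normalization behind them.

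Spots of a probe were averaged without outlier-flagged spots. Log2 processed intensity was taken relative to the 75th percentile of non-control probes on the same array. Of 15008 probes, the 10730 well above background on 6 or more of the 12 arrays were tested two-sided with lmFit and eBayes of limma (version 3.58.1, R 4.3.3), with Benjamini-Hochberg adjustment over these probes and a threshold of 0.05. The number of arrays limits the precision. The median standard error of a difference was 0.21. The lead probe of a gene is the one with the highest mean signal. The exact permutation tests enumerated every split of 6 against 6, all 362880 pairings of 9 arrays, or every pairing of the 6 control arrays. With 6 arrays the possible p-values are few and coarse. The planned correlation test over 12 arrays, with 100000 permutations, was run, but FBXO32 fell into separate sets, so tests were also made within sets. Tables were handled in pandas 2.3.3, permutations in numpy 2.4.6, ranks in scipy 1.17.1 and plots in matplotlib 3.10.9, under Python 3.11.15. The fit was tested on simulated data.

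Gene names came from the array's annotation and the RefSeq table of sheep genes, which named 713 probes by accession, 139 by Entrez number, 497 by symbol, 20 by synonym and 5 by a symbol in the description. A table made by hand named 16, 198 kept the array's name, 14 matched several genes and 13406 had none. Names of FBXO32 and CTSB rest on the array's own annotation of expressed sequence tags. The members and lists were chosen with earlier results of these data known. The genes named are the 9 members, up to 3 higher and 3 lower genes of each list with the smallest unadjusted p, and the 8 most and 4 least like FBXO32, of which some, and a probe sequence, are not reported here. Alternatives covered background correction, scaling, filters, blocks, single slides, variance models, array weights and each array left out.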

Additional observations from a re-analysis of the deposited data

Results flagged for a closer look

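The control values of 4 genes named here lay farther from the other controls than a Dixon test at the 95% level allows. These were 4 of 92 groups of 6 arrays examined, and chance alone gives about 1 in 20. On control array 3, MSTN was at -5.40, against -1.41 to -0.67 on the other controls. CLC4 on the same array was at -3.29, against -2.99 to -2.83 on the other controls. SMAD2 there was at -1.01, against -1.99 to -1.81 on the other controls. On control array 6, AKT1 was at 1.28, against 0.48 to 0.62 on the other controls. None of the 9 members had such a value in either group.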

How the results depend on the processing

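Under 27 of 28 alternatives 0 probes passed the adjusted threshold, with 298 to 1080 at an unadjusted p under 0.05, and with slide 1 alone 1 probe passed. Leaving out any 1 array gave 0. With the replicate number as a block the count was 0 as well, with 843 probes at an unadjusted p under 0.05, and the FBXO32 adjusted p was 0.633. The block changed no other call. The deviations of same-numbered arrays from their group means correlated at -0.11 to 0.25, and 3 of the 6 cortisol arrays correlated best with the control of their own number, so the numbers were not taken as pairs. The FBXO32 difference stayed positive throughout, at 0.66 to 2.85, and at 1.18 to 1.93 with 1 array left out. CTSD, SQSTM1, UBB and PSMD4 also kept their direction at both probes.

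Other differences changed sign in some settings, and the cause was not tested. Slide 1 alone gave -0.53 and -0.56 for the CAPN3 probes and 0.070 and 0.038 for those of PSMB7. Slide 2 alone gave -0.043 for CAPN2 at base 2040. Single rows of slide 2, added after seeing the data, gave -0.00082 and -0.085 for that probe, -0.035 for CAPN2 at base 2019, -0.032 for CTSB and 0.083 for PSMB7 at base 159. With 1 array left out, CAPN2 at base 2040 ran from -0.011 to 0.24, and CAPN3 from -0.085 to 0.17 at base 3059 and from -0.045 to 0.24 at base 2996.

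Listed genes were also compared with 1 array left out, an alternative added after seeing the data. MSTN ran from 0.13, without control array 3, to 1.27. Ranges that crossed 0 were -0.23 to 0.073 for CAST, -0.075 to 0.044 for CAPNS1, -0.085 to 0.026 for ATP6V0C, -0.22 to 0.015 for SMAD3, -0.22 to 0.057 for AKT1 and -0.13 to 0.073 for SMAD2, the last without control array 3. The other 11 kept their direction, with 0.38 to 0.65 for CTSS, -0.51 to -0.38 for ATP6V1E1 and 0.67 to 1.09 for CEBPB.

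The likeness to FBXO32 changed sign as follows. Without the 2 arrays farthest from the median, r was -0.29 for CTSB, -0.18 for SQSTM1 and 0.099 for CAPN3. Among controls it was -0.63 for CTSB, -0.77 for CTSD, -0.13 for SQSTM1 and -0.22 for PSMD4. Among the 9 arrays below the gap, a set added after seeing the data, it was -0.68 for CTSB, -0.23 for CTSD and -0.16 for SQSTM1. For UBB it was 0.12 with normexp, 0.014 with quantile scaling, 0.037 with the deposited values, 0.19 after subtracting group means and 0.44 among cortisol arrays, and for CAPN3 0.014 with the deposited values. With 1 array left out, r ran from -0.45 to 0.43 for CAPN3 and from -0.33 to 0.035 for UBB. A second FBXO32 probe, planned as an alternative, was not run because the array names only 1.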

Other observations

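A pair of probes that carry no gene name followed FBXO32 more closely than any named gene, and they were chosen after their values were seen. The first had 4.49, 0.68, 3.96, 0.76, 4.32 and 1.88 on cortisol arrays 1 to 6, against 1.02, 1.85, 2.04, 1.64, 0.62 and -0.08 on control arrays 1 to 6. Its r with FBXO32 was 0.996 over 12 arrays and 0.99 both within the 9 arrays below the FBXO32 gap and within controls. The second had r of 0.987 over 12 arrays and 0.95 within the 9 arrays. Adjusted over all probes compared, the exact permutation p within the 9 arrays was 0.0886 for the first and 0.448 for the second. The differences between cortisol and control means were 1.50 and 1.56. The transcripts these probes detect are not identified here.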
